A study of Sus scrofa with 61 samples.

Results

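The myogenic regulatory factors MYF5, MYOD1, MYOG and MYF6, the paired box factors PAX7 and PAX3, and the MEF2 factors MEF2A, MEF2C and MEF2D were followed in the longissimus muscle of pig fetuses near the end of gestation. The 9 genes were taken by name: a probe was a member where the array names it for the gene, or where the gene lists published with the study do. This gave 23 of the 60305 probes of the array, and all 23 passed the filter that kept 42436 probes. There were 5 probes each for MEF2A and MEF2C, 3 for MYOG, 2 each for MYOD1, MYF6, PAX7 and PAX3, and 1 each for MYF5 and MEF2D. For a gene with several probes, the one with the highest mean over all arrays is called its main probe. Another 4 probes, 3 of MYF5 and 1 of MEF2C, carry the gene only through a RefSeq identifier and are given beside the members.

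The 61 fetuses were all male and were collected at gestation day 90 or day 110. LW are purebred Large White fetuses and MS purebred Meishan fetuses. The crosses were reciprocal: the dam was MS and the sire LW for LWMS, and the dam was LW and the sire MS for MSLW. At day 90 there were 8 fetuses of each of the 4 genotypes, and at day 110 there were 9 LW, 7 MS, 8 LWMS and 5 MSLW fetuses. Semen of both breeds went into each insemination, and a litter could therefore hold 2 genotypes. The labels do not name the sow, and littermates therefore count as separate fetuses in every test. Each 1-colour Agilent array took the Cy3-labelled RNA of 1 fetus, and values are quantile-normalized log2 intensities. Between 34346 and 45683 probes per array were well above background. The arrays lay on 8 slides, each with 6 to 8 of the 8 groups. Differences are given as log2 values with the standard error (SE) and the Benjamini-Hochberg adjusted p of limma, with a threshold of 1%. The muscle was ground whole, so fewer cells of a type and less RNA per cell cannot be told apart.

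In developing muscle, PAX3 and PAX7 mark the progenitor cells, and PAX7 is the classic marker of the satellite cells that stay beside the fibre after birth. MYF5 and MYOD1 commit progenitors to the muscle lineage, MYOG drives their terminal differentiation and fusion, and MYF6 (also called MRF4) is expressed mainly in differentiated fibres. The MEF2 proteins bind muscle promoters together with these factors and act in the fibre as targets of calcium signalling.

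Each probe has 60 bases. The following are shown because the results below turn on them. The MYF5 probe shown lies at base 553 and is 1 of the 3 named by RefSeq identifier. The brightest of those, at base 1173, is the one whose levels are given below, and the 2 correlated at r = 0.80 over the 61 arrays within groups and slides. The capitals of the MYOG probe mark a stop codon, and the PAX7 and PAX3 sequences each stand on the array as 2 separate spots.
MYF5: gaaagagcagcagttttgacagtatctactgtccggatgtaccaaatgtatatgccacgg
MYOD1: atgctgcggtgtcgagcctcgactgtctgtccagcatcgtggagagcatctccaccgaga
MYOG: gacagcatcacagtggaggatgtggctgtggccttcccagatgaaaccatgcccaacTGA
PAX7: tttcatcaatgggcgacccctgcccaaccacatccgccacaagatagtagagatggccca
PAX3: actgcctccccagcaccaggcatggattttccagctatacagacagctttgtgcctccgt

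The PAX7 probe lies in the part that encodes the paired domain, which the PAX family shares, while the PAX3 probe lies outside it. How much PAX3 transcript the PAX7 probe takes up was not tested. Between the probes of different members, the longest run of identical bases was 9. Probes were compared with probes and not with transcripts. The run therefore cannot say how much of another member's transcript a probe takes up.

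For MEF2C, 2 probes are shown that gave different age changes. The scanner file places the first at base 176 of the transcript, in the part that encodes the DNA-binding domain common to the MEF2 proteins, and the other at base 932. The MEF2A probe at base 1183 had the largest difference between the breeds at day 110 among the MEF2A probes. Of the MEF2D probe, the 41 bases from the start codon (in capitals) are shown, and they too lie in the conserved start of the protein.
MEF2C at base 176: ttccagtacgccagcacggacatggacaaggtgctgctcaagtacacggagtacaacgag
MEF2C at base 932: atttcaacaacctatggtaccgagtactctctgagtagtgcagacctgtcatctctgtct
MEF2A at base 1183: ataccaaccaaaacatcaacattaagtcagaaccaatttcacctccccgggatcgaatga
MEF2D: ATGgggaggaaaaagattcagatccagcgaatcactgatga

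Some probes of one gene hold sequence of opposite strands. The only probe that the array names MYF5 shares a run of 31 bases with the reverse complement of a MYF5 probe named by RefSeq identifier, and 30 bases of that run are shown in capitals. Among the MYOG probes, the one at base 138 shares 15 bases (capitals) with the reverse complement of another. The RefSeq-named MYF5 probe of this pair is placed at base 774 of its transcript. Over the shared run the array-named probe holds the opposite strand. If the placed probe is written in the sense of the transcript, the array-named probe cannot be read as a measure of MYF5 mRNA. Which strand each probe detects was not tested on the arrays. Within groups and slides the MYF5 pair correlated at r = 0.24 and the MYOG pair at r = 0.62 over the 61 arrays, and that other MYOG probe correlated with the main MYOG probe at r = 0.79.
MYF5, RefSeq-named probe: TCCAGGCTCATCTACCATGTGCTATGAACT
MYF5, array-named probe: AGTTCATAGCACATGGTAGATGAGCCTGGA
MYOG, probe at base 138: TAAGGAGTCAGATAAatgagagcatccatt
MYOG, the other probe: TTATCTGACTCCTTAgagcagaaagcagtt

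From day 90 to day 110, MYOD1, MYOG, MYF6 and MEF2C fell and PAX7, PAX3 and MEF2D rose. Averaged over the 4 genotypes, 7 of the 9 main probes passed the threshold, 3 higher and 4 lower at day 110. Among all kept probes 72.3% passed, 37.3% higher and 35.0% lower, so the share of members that changed was near the background. Over all 23 member probes, 16 passed, 5 higher and 11 lower. The median difference was -0.26 over the 23 probes and 0.04 over all kept probes. The F test of the 8 groups (Bonferroni, 1%) called the same 7 of 9 genes against 44.9% of all kept probes.

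**Figure D1:**
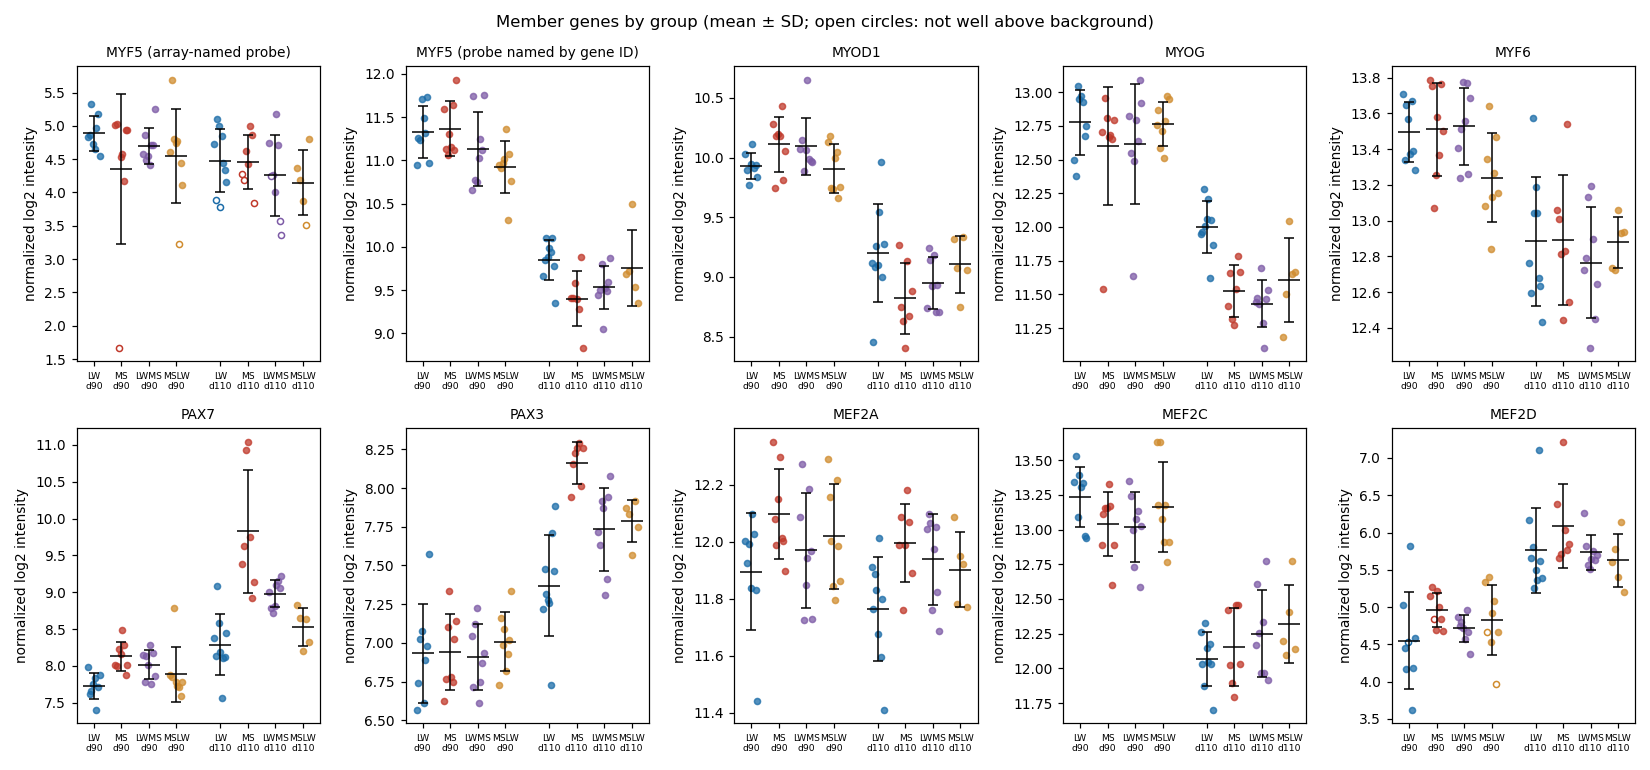
Normalized log2 intensity (vertical axis) of each fetus in the 8 groups for the main probe of each gene and for the brightest MYF5 probe named by RefSeq gene identifier, with the mean and SD as black bars; open circles are spots not well above background. MYOD1, MYOG, MYF6 and MEF2C have all 4 day-110 means below all day-90 means, PAX7, PAX3 and MEF2D the reverse, and the MS fetuses of day 110 are the highest group for PAX7 and PAX3.

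MYF5, which acts earliest in the lineage, fell on all 3 RefSeq-named probes and had no called age change on the array-named probe. Over all arrays the array-named probe had a mean log2 level of 4.49, and the others 10.45, 9.30 and 7.55. Within groups and slides the RefSeq-named probes correlated with each other at r = 0.80 to 0.92. With the array-named probe they correlated at r = 0.17 to 0.29. The array-named probe was well above background on 50 of 61 arrays and ranged from 4.55 to 5.33 in LW at day 90 (median 4.85) and from 3.78 to 5.10 in LW at day 110 (median 4.45). Its age change of -0.29 (SE 0.155, adjusted p = 0.0848) did not pass, and none of the 28 pairs of groups differed. The brightest RefSeq-named probe, above background on all 61 arrays, had a lowest, median and highest value of 10.95, 11.28 and 11.74 in LW at day 90 and a lowest and median of 9.35 and 9.88 in LW at day 110, with no LW fetus of day 110 above the lowest of day 90. In MS it had 11.06, 11.23 and 11.93 at day 90 and 8.83, 9.41 and 9.88 at day 110. The LWMS fetuses went from 10.65, 11.07 and 11.75 to 9.05, 9.51 and 9.87, and in these 3 genotypes the ages did not overlap. The MSLW fetuses had 10.31, 10.96 and 11.36 at day 90 and 9.68, 9.72, 10.49, 9.54 and 9.35 at day 110, where 1 fetus of day 110 lay above the lowest of day 90. By this probe MYF5 fell 2.93-fold over the genotypes, with a log2 difference of -1.55 (SE 0.0826, adjusted p = 9.53e-25). The other RefSeq-named probes fell by 1.38 and 1.53, and MYF5 would be the eighth of 9 genes past the threshold if it were counted by such a probe, a choice made after its values were seen.

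MYOD1, the other commitment factor, fell in all 4 genotypes. Its lowest, median and highest values at day 90 were 9.77, 9.92 and 10.12 in LW, 9.74, 10.18 and 10.43 in MS, 9.89, 10.03 and 10.65 in LWMS, and 9.66, 9.88 and 10.18 in MSLW. At day 110 they were 8.46, 9.12 and 9.96 in LW, 8.41, 8.75 and 9.27 in MS, and 8.71, 8.93 and 9.25 in LWMS, and the 5 MSLW fetuses had 9.32, 9.07, 8.75, 9.34 and 9.06. The ages overlapped in LW only, where 1 fetus of day 110 reached 9.96. The average fall was 0.99 on the log2 scale (SE 0.0672, adjusted p = 4.46e-20), or 1.99-fold, and it was present within each of the 8 slides (-1.21 to -0.81). The other MYOD1 probe, above background on 58 of 61 arrays, fell by 0.26 (SE 0.069, adjusted p = 0.000573), and after groups and slides were taken out the 2 probes correlated at r = 0.13 over the 61 arrays.

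MYOG, the differentiation factor, fell 2.07-fold. Its lowest, median and highest values at day 90 were 12.38, 12.84 and 13.05 in LW, 11.54, 12.69 and 12.96 in MS, 11.63, 12.72 and 13.09 in LWMS, and 12.51, 12.77 and 12.97 in MSLW. At day 110 they were 11.62, 12.01 and 12.28 in LW, 11.28, 11.54 and 11.79 in MS, and 11.10, 11.46 and 11.70 in LWMS, with 11.18, 11.50, 12.05, 11.65 and 11.67 in the MSLW fetuses. In MS and in LWMS 1 low fetus of day 90 fell within the range of day 110, and in LW and MSLW the ages did not overlap. The average difference was -1.05 (SE 0.0747, adjusted p = 3.37e-19), and the other 2 probes, which share a run of opposite strand, fell by 1.40 (SE 0.103, adjusted p = 1.35e-18) and 0.62 (SE 0.0835, adjusted p = 1.52e-09). All 3 MYOG probes fell in LW and in MS.

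MYF6, the factor of differentiated fibres, had the smallest estimate among the called myogenic factors. Its group medians lay between 13.21 and 13.54 at day 90 and between 12.76 and 12.93 at day 110. The highest fetuses of day 110, 13.58 in LW and 13.54 in MS, lay within the day-90 ranges. The average difference was -0.59 (SE 0.0711, adjusted p = 7.49e-11), and that of the other MYF6 probe was -0.54. In MSLW the difference of -0.36 (SE 0.156, adjusted p = 0.0434) did not pass.

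PAX7, the satellite cell marker, rose with age on both spots of its sequence. The brighter spot had a lowest, median and highest value of 7.41, 7.73 and 7.99 in LW, 7.88, 8.09 and 8.48 in MS, 7.75, 8.07 and 8.28 in LWMS, and 7.59, 7.78 and 8.78 in MSLW at day 90. At day 110 it had 7.56, 8.18 and 9.09 in LW, 8.93, 9.62 and 11.04 in MS, and 8.72, 9.03 and 9.22 in LWMS, and the MSLW fetuses had 8.83, 8.66, 8.20, 8.64 and 8.32. The ages did not overlap in MS and LWMS. The average rise was 0.96 (SE 0.0983, adjusted p = 3.35e-13), or 1.95-fold, on this spot and 0.84 (SE 0.0646, adjusted p = 7.51e-18), or 1.79-fold, on the second spot. The rise in LW passed on the brighter spot (0.56, SE 0.184, adjusted p = 0.00823) and not on the second spot (0.34, SE 0.121, adjusted p = 0.0149).

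The 2 PAX7 spots hold the same 60 bases and still differed by more than 1 on the log2 scale on 4 of 61 arrays. These were MS day 110 replicate 3 (10.92 against 9.14), MS day 110 replicate 4 (11.04 against 9.26), LW day 110 replicate 3 (9.09 against 7.90) and MSLW day 90 replicate 3 (8.78 against 7.74), the brighter spot being higher in each. After groups and slides were taken out the 2 spots correlated at r = 0.09, while the 2 PAX3 spots correlated at r = 0.70 and differed by more than 1 on 0 of 61 arrays. PAX7 results are therefore given for both spots. Which spot is the more accurate was not tested.

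**Figure D2:**
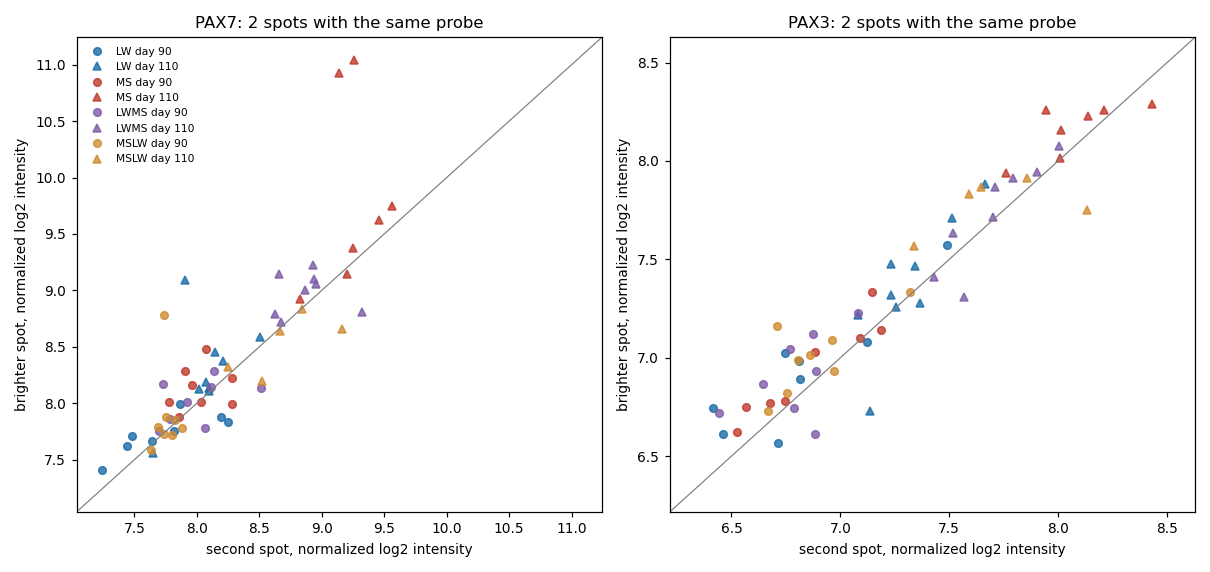
Normalized log2 intensity of the brighter spot (vertical) against the second spot (horizontal) carrying the same probe, for PAX7 (left) and PAX3 (right); each point is a fetus, with circles for day 90 and triangles for day 110, and the grey line marks equality. For PAX7, 4 of 61 arrays lie more than 1 above the line, 2 of them MS fetuses of day 110, and for PAX3 none lies more than 1 from it.

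PAX3, the factor of embryonic progenitors and a close relative of PAX7, rose 1.76-fold. At day 90 its lowest, median and highest values were 6.57, 6.94 and 7.57 in LW, 6.62, 6.90 and 7.33 in MS, 6.61, 6.90 and 7.23 in LWMS, and the MSLW fetuses lay between 6.73 and 7.34. At day 110 they were 6.73, 7.32 and 7.88 in LW, 7.94, 8.23 and 8.29 in MS, and 7.31, 7.79 and 8.08 in LWMS, with 7.87, 7.83, 7.57, 7.92 and 7.75 in MSLW. The ages overlapped in LW only. The average rise was 0.82 (SE 0.0642, adjusted p = 2.16e-17), and that of the second spot was 0.86 (SE 0.0622, adjusted p = 6.14e-19).

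MEF2C, a MEF2 factor prominent in skeletal muscle, fell 1.89-fold. Its lowest, median and highest values at day 90 were 12.94, 13.32 and 13.53 in LW, 12.60, 13.13 and 13.33 in MS, 12.59, 13.05 and 13.35 in LWMS, and 12.77, 13.13 and 13.63 in MSLW. At day 110 they were 11.70, 12.05 and 12.33 in LW, 11.80, 12.03 and 12.46 in MS, and 11.92, 12.21 and 12.77 in LWMS, with 12.19, 12.09, 12.40, 12.77 and 12.14 in MSLW. The purebred fetuses of the 2 ages did not overlap. The average difference was -0.92 (SE 0.0679, adjusted p = 1.92e-18), and 3 other probes fell by 0.76 to 1.01. The probe at base 176 differed, with a change of -0.17 (SE 0.0814, adjusted p = 0.0578), although it correlated with the probe at base 932 at r = 0.79 over the 61 arrays within groups and slides.

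MEF2A showed no called age change on any of its 5 probes, whose differences ran from -0.09 to 0.10. The main probe had group medians between 11.80 and 12.05, and its change was -0.09 (SE 0.0462, adjusted p = 0.0563). MEF2D rose 2.06-fold, by 1.04 (SE 0.114, adjusted p = 3.19e-12), on its only probe. That probe was well above background on all day-110 arrays but on 7 LW, 7 MS, 8 LWMS and 6 MSLW arrays of 8 each at day 90. Its lowest, median and highest values were 3.62, 4.49 and 5.82 in LW and 4.68, 4.92 and 5.27 in MS at day 90. At day 110 they were 5.26, 5.61 and 7.10 in LW and 5.65, 5.84 and 7.22 in MS, and the ages overlapped in LW but not in MS. Within slides MEF2D was higher at day 110 on 8 of 8 slides (0.64 to 1.38).

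**Figure D3:**
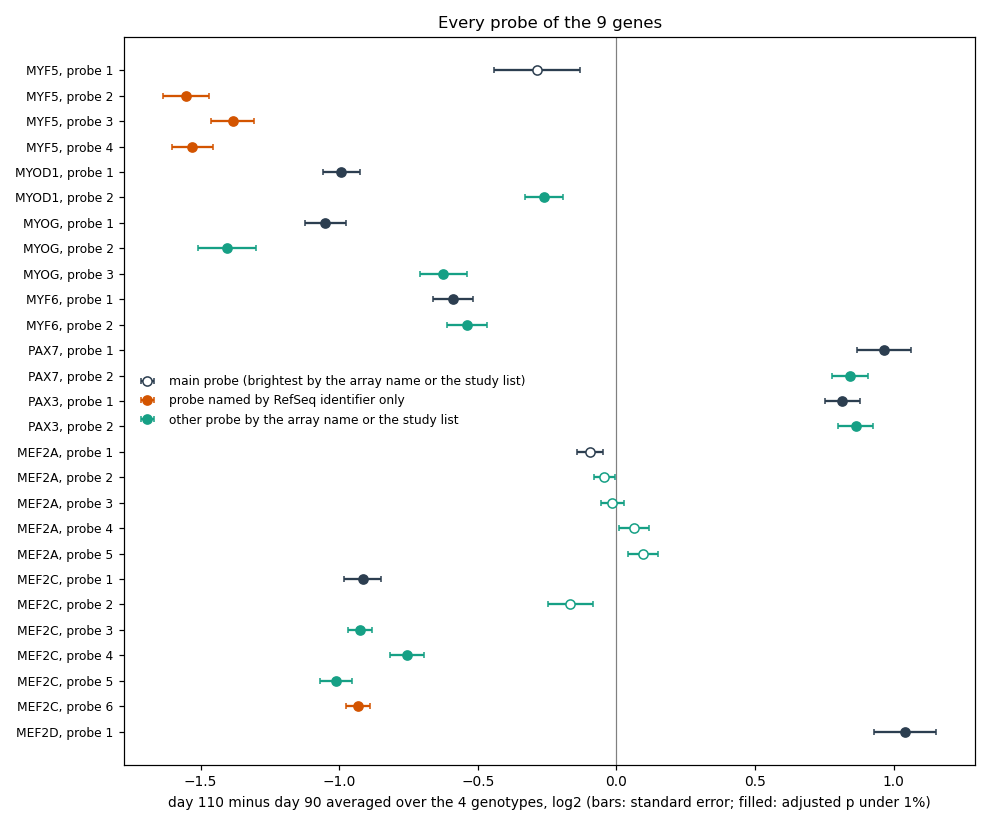
Age change (day 110 minus day 90, log2, averaged over the 4 genotypes) with its standard error for every probe of the 9 genes; filled points passed an adjusted p of 1%, and colours mark how the probe was named. Probes of MYOG, MYF6, PAX7, PAX3 and MEF2A lie on the same side or near 0 together, while 1 MYF5 probe and 1 MEF2C probe stay near 0 apart from the others of their gene. The second MYOD1 probe also lies nearer 0 than the main MYOD1 probe.

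By genotype, 7 of 9 main probes passed in LW against a background of 45.3% of all kept probes, 7 in MS against 56.7%, 7 in LWMS against 50.9% and 6 in MSLW against 44.6%. MYF6 was the gene that passed in the other genotypes and not in MSLW. The MSLW count rested on 5 fetuses at day 110 and fell to 4 without replicate 1, 2 or 4 (PAX7 and MEF2D lost) and to 5 without replicate 5 (PAX7 lost). The ages did not overlap for 2 of 9 main probes in LW (MYOG and MEF2C), against 23.3% of all kept probes, and for 5 in MS (MYOD1, PAX7, PAX3, MEF2C and MEF2D), against 37.9%. They did not overlap for 5 in LWMS (MYOD1, MYF6, PAX7, PAX3 and MEF2D), against 30.4%, and for 3 in MSLW (MYOD1, MYOG and PAX3), where the share of all kept probes lay between those of LW and LWMS. Over all kept probes and the 4 genotypes it was 29.9%. Among the main probes, the size of the change varied most for the PAX genes. The brightest RefSeq-named MYF5 probe, which is not a main probe, varied about as much between genotypes as PAX3. PAX7 rose by 0.56 in LW (SE 0.184), 1.69 in MS (SE 0.196), 0.97 in LWMS (SE 0.189) and 0.64 in MSLW (SE 0.216). On the second spot the values were 0.34, 1.22, 0.88 and 0.93. PAX3 rose by 0.44 in LW (SE 0.12), 1.22 in MS (SE 0.128), 0.82 in LWMS (SE 0.124) and 0.78 in MSLW (SE 0.141).

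**Figure D4:**
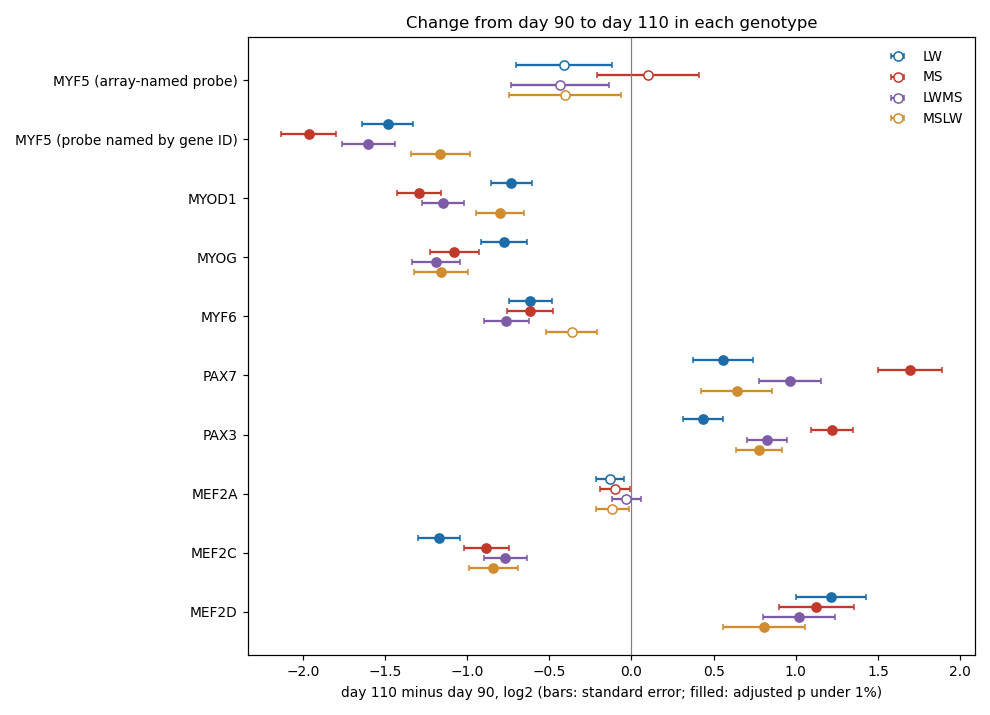
Age change (day 110 minus day 90, log2) in each of the 4 genotypes for each gene, with standard errors; filled points passed an adjusted p of 1%. The MS point lies farthest right for PAX7 (1.69) and PAX3 (1.22), and MEF2A and the array-named MYF5 probe have no filled point.

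Whether age acted differently in the 2 breeds was tested directly. The age change was more positive in MS than in LW for PAX7, by 1.14 (SE 0.269, adjusted p = 0.0028) on the brighter spot and by 0.88 (SE 0.177, adjusted p = 0.000438) on the second spot. PAX3 followed with 0.79 (SE 0.175, adjusted p = 0.00152) and 0.73 (SE 0.17, adjusted p = 0.00248) on its 2 spots. These were the 2 of 9 genes past the threshold, against 5.95% of all kept probes (2.56% in this direction). Both differences were positive on each of the 6 slides that held the 4 groups, and ran from 0.63 to 1.16 for PAX3. With LW and MS fetuses fitted alone, PAX7 no longer passed on the brighter spot (1.14, adjusted p = 0.0172). MYOD1 fell by 0.73 in LW and 1.29 in MS, and the difference of -0.56 (SE 0.184, adjusted p = 0.0321) did not pass.

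At day 90 the purebred fetuses differed in 0 of 9 main probes and in 0 of 23 member probes by limma, against 12.8% of all kept probes. The member probe closest to the threshold was a MEF2A probe that was 0.27 higher in MS (SE 0.0797, adjusted p = 0.0116). PAX7 was 0.40 higher in MS on the brighter spot (SE 0.189, adjusted p = 0.137) and 0.28 on the second spot (SE 0.124, adjusted p = 0.106).

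At day 110, 3 of 9 main probes differed between MS and LW, 2 higher (PAX7 and PAX3) and 1 lower (MYOG) in MS. Among all kept probes 29.0% differed, 13.7% higher and 15.2% lower. PAX7 was 1.54 higher in MS (SE 0.191, adjusted p = 2.96e-09), or 2.90-fold, on the brighter spot and 1.16 higher (SE 0.125, adjusted p = 5.4e-11), or 2.24-fold, on the second spot. The second spot had 8.82, 9.25 and 9.56 (lowest, median, highest) in MS and 7.65, 8.10 and 8.51 in LW, without overlap. The brighter spot overlapped through 1 LW fetus at 9.09, an array on which the spots disagreed. PAX3 was 0.79 higher in MS (SE 0.125, adjusted p = 6.94e-07), or 1.73-fold, and the lowest MS fetus (7.94) lay above the highest LW fetus (7.88). PAX3 was the 1 of 9 main probes without overlap, against 8.27% of all kept probes. Both genes were higher in MS on 6 of 6 slides.

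Among the myogenic factors, MYOG was 0.48 lower in MS at day 110 (SE 0.145, adjusted p = 0.00645), with all 6 slides in that direction and the smallest difference at -0.17. Its other probes gave -0.47 (SE 0.2, adjusted p = 0.0547) and 0.03 (SE 0.162, adjusted p = 0.907). The last is the probe at base 138, well above background on 60 of 61 arrays. Its mean log2 level was 5.89, against 12.20 for the main MYOG probe. With the slide as a block the main MYOG probe no longer passed (-0.42, adjusted p = 0.0155). MYOD1 was -0.38 apart (SE 0.13, adjusted p = 0.0161). Of the RefSeq-named MYF5 probes, 1 of 3 passed, at -0.59 (SE 0.141, adjusted p = 0.000646), and the others gave -0.45 and -0.42. MYF6 differed by 0.01 (SE 0.138, adjusted p = 0.969).

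Among the MEF2 genes, 3 of 5 MEF2A probes passed at day 110, with MS higher by 0.26, 0.28 and 0.36. The main MEF2A probe did not, at 0.23 (SE 0.0896, adjusted p = 0.0349), and passed when arrays were scaled to the 75th percentile (0.32, adjusted p = 0.00237). MEF2C (0.09, SE 0.132) and MEF2D (0.33, SE 0.22) did not pass. Over all 23 member probes 8 passed at day 110, 7 higher and 1 lower in MS, against 29.0% of all kept probes (13.7% higher and 15.2% lower). The 7 were the 3 MEF2A probes and the 2 spots each of PAX7 and PAX3, which repeat 1 sequence per gene.

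**Figure D5:**
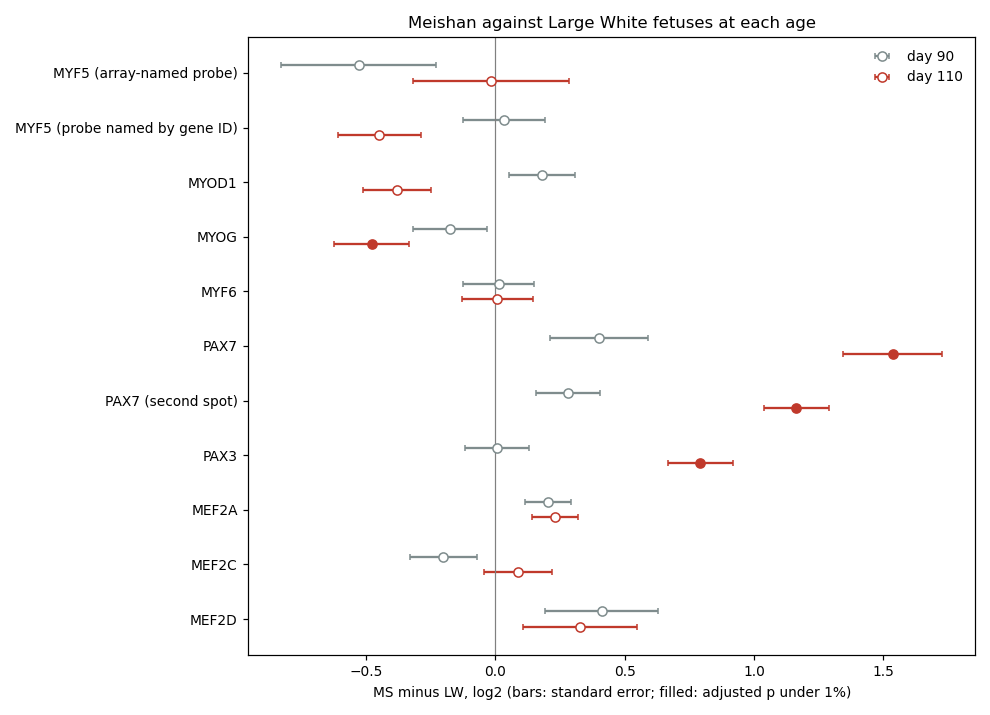
Difference between MS and LW fetuses (log2, MS minus LW) with its standard error at day 90 (grey) and day 110 (red), for each gene and for the second PAX7 spot; filled points passed an adjusted p of 1%. No day-90 point is filled, PAX7 (1.54 and 1.16) and PAX3 (0.79) lie to the right at day 110, and MYOG (-0.48) to the left.

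The order of the 8 group means followed age for 7 of the 9 main probes, as it did for 60.2% of all kept probes, and the order within an age was mostly not resolved. For MYOD1 the order from lowest to highest was MS, LWMS, MSLW and LW at day 110 and MSLW, LW, LWMS and MS at day 90, with the only differing neighbours at the step between the ages (0.71). MYOG and MEF2C likewise differed between neighbours at that step only (0.60 and 0.70). For PAX7 the order was LW, MSLW, LWMS and MS at each age and on both spots. The neighbours that differed were LWMS and MS at day 110 on the brighter spot (0.85) and LW and MSLW at day 110 on the second spot (0.61). For PAX3, LW at day 110 stood 0.36 above MSLW at day 90, and the remaining neighbours did not differ. Neighbours did not differ at any step for MYF6, MEF2A, MEF2D and the array-named MYF5 probe. Of 28 pairs of groups, 18 differed for MYOG, 17 for PAX3, 16 for MYOD1, 16 for MEF2C, 15 for PAX7, 15 for MEF2D, 13 for MYF6, 1 for MEF2A and 0 for the array-named MYF5 probe (16 for its brightest RefSeq-named probe). Over all kept probes and pairs, 31.5% differed.

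The reciprocal crosses differ in the breed of the sow and of the boar at once, so their comparison addresses both together. LWMS and MSLW differed in 0 of 9 main probes at day 90 (0.500% of all kept probes) and in 0 of 9 at day 110 (0.912%). PAX7 was 0.45 higher in LWMS at day 110 on the brighter spot (SE 0.216, adjusted p = 0.302) and 0.18 on the second spot (SE 0.142, adjusted p = 0.624). The crosses departed from the mean of the purebreds in 0 of 9 at day 90 (0.0495%) and 0 of 9 at day 110 (0.0778%).

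In the model of parental genotypes, the interaction of age with the maternal genotype called 0 of 9 (3.05% of all kept probes) and that with the paternal genotype 0 of 9 (0.462%). Among the main probes, the maternal terms of PAX7 on its brighter spot (0.70, SE 0.199, adjusted p = 0.0188), PAX3 (0.41, SE 0.127, adjusted p = 0.0298) and MYOD1 (-0.45, SE 0.133, adjusted p = 0.0241) came closest. By the changes given above, PAX7 on its second spot rose no more in LWMS, with the MS dam, than in MSLW, with the MS sire. With the slide as a block 2 genes, PAX7 by its brighter spot and PAX3, passed the maternal test, so this count depended on that setting. Littermates share a dam and a gestational age, and the sow was not fitted. The maternal tests, like those of age and of breed above, therefore count fetuses that are not independent. The paternal terms were 0.42 (adjusted p = 0.326) and 0.47 (adjusted p = 0.0468) for the 2 spots of PAX7, and 0.37 for PAX3 (adjusted p = 0.13).

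Genes around these factors were described from lists. Their counts stand beside a background of 72.3% of all kept probes that changed with age (37.3% higher and 35.0% lower) and of 29.0% that differed between MS and LW at day 110 (13.7% higher and 15.2% lower). Of the dimer partners and inhibitors of the myogenic factors, 8 of 10 fell with age and 2 rose, with a median of -0.74. TCF4, an E protein that pairs with them, fell by 1.20, and the inhibitor ID2 fell by 1.04, while BHLHE40 and BHLHE41, transcriptional repressors, rose by 0.97 and 0.36. At day 110, 4 of the 10 were lower in MS (background 15.2%) and 0 higher, with ID2 at -0.74, TCF3 at -0.70 and ID3 at -0.66. TCF3 was already lower in MS at day 90 (-0.71, adjusted p = 0.0038), while ID2 and ID3 did not pass there. Of 13 upstream regulators tested, 4 rose and 4 fell with age (median 0.01), and their called share of 61.5% was below the 72.3% of all kept probes. Musculin (MSC), a repressor of the MYOD1 family, fell by 3.22 and MEOX2 fell by 1.02, and TBX15 rose by 0.98 and PITX3 by 0.72. At day 110, 2 of the 13 were lower in MS, MSC (-0.80) and EYA3 (-0.40).

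Of 25 co-regulators and signalling genes of MEF2, 9 rose and 8 fell with age (median 0.07), a called share of 68.0% beside the 72.3% of all kept probes. SRF, a partner of MEF2, rose by 0.96, PPARGC1A, the regulator of mitochondrial genes, by 0.95 and NFATC3, a calcineurin target, by 0.53, while RCAN1, a calcineurin inhibitor, fell by 0.55, HDAC9 fell by 0.44 and NFATC2 fell by 0.40. At day 110, 40.0% were called against 29.0% of all kept probes, 7 higher and 3 lower in MS, among them CAMK2G (0.75), NFATC3 (0.64), the calcineurin subunit PPP3R1 (0.56) and the MEF2 repressor HDAC5 (-0.42). NFATC3 was already higher in MS at day 90 (0.57, adjusted p = 7.65e-08), while CAMK2G, PPP3R1 and HDAC5 did not pass there. Of 12 co-regulators of the myogenic factors 4 rose and 6 fell (median -0.15), a called share of 83.3%. PRMT5 rose by 0.88 and CARM1 by 0.57, and EZH2, the histone methyltransferase, fell by 1.88, SNAI2 fell by 1.54 and SNAI1 fell by 0.96. At day 110, 0 were higher and 2 lower in MS, a called share of 16.7% against 29.0%, EZH2 (-0.64) and SMARCD3 (-0.45).

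Of 14 genes of fusion and early differentiation, 4 rose and 7 fell with age, with a median of -0.11 and a called share of 78.6% near the background. TNNT2, the cardiac and fetal troponin T, fell by 3.09, MYH3, the embryonic myosin, fell by 2.57 and MYMK, the fusion protein myomaker, fell by 1.97, while MYBPH rose by 2.49 and TRIM63, an atrophy ligase, by 0.75. At day 110, 7 were lower (background 15.2%) and 1 higher in MS, with MYH3 at -2.87, MYMK at -1.37, TNNT2 at -1.22 and MYBPH at 0.78. The direction of 2 medians depended on scaling, since with arrays scaled to the 75th percentile the age median was 0.37 for the fusion list and 0.04 for the co-regulators of the myogenic factors. Under that scaling 9 fusion genes rose and 5 fell with age, at day 110 3 were lower and 2 higher in MS, and 13 of the MEF2 co-regulators rose and 4 fell.

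Most other satellite cell genes fell with age, while PAX7 rose. Of 13 tested, 10 fell with age (background 35.0%) and 3 rose, with a median of -1.23. CALCR, a receptor of quiescent satellite cells, fell by 2.04, NCAM1 fell by 2.03 and FGFR4 fell by 1.80, and SDC4, DAG1 and SDC3 rose by 0.29, 0.26 and 0.23. At day 110, 7 were lower in MS (background 15.2%) and 0 higher (NCAM1 -1.43, FGFR4 -1.23, CALCR -1.02), and in 7 of 13 the age change was more negative in MS than in LW (3.39% of all kept probes) and in 0 more positive (2.56%). CDH15 was below the filter. Of 11 proliferation genes, 10 fell with age (median -3.32), among them TOP2A (-3.99) and CDK1 (-3.91), and 1 rose, MKI67 by 0.41. At day 110, 7 of the 11 were lower in MS and 0 higher.

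Markers of other cells of the muscle are given beside the same background of 72.3% for age and 29.0% for breed at day 110. All 7 fibroblast markers fell with age (median -1.44) and 5 were lower in MS at day 110 (median -0.63). Their mean level per array ran from 13.25 to 13.67 at day 90, from 12.03 to 12.56 in LW at day 110 and from 11.46 to 11.74 in MS at day 110. Of 6 muscle fibre markers 4 rose and 1 fell with age, and the mean level ran from 17.48 to 17.77 at day 90 and from 17.69 to 17.99 at day 110. Of 6 endothelial markers 1 rose and 4 fell, of 7 immune markers 0 rose and 3 fell, and of 4 red blood cell markers 1 rose and 2 fell. Of 5 Schwann cell markers 3 rose and 0 fell, and of 5 adipocyte markers 1 rose and 3 fell. Of 3 satellite cell markers tested, PAX7 rose and CXCR4 and CALCR fell. The defining markers of muscle fibres, ACTA1, CKM and TTN, were kept. The part of these cell types in the changes of the 9 genes was not tested.

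Over the 36 pairs of main probes of different genes, r across the 61 arrays, which share groups and slides that were taken out first, ran from -0.32 to 0.47 with a median of 0.0019. The genes most alike to MYOD1 were KIAA1671 (r = 0.69), CCDC8 (0.64) and FLNC (0.63). For MYOG they were SETD5 (0.74), RGMA (0.64) and DNAJC7 (0.63), and for MYF6 XIRP1 (0.63), CARP (0.59, the name on the array) and OTUD1 (0.58). For PAX3 they were BZW2 (0.75), JTB (0.72) and TULP4 (0.72). For MEF2C they were SENP5 (0.79), USP14 (0.76) and MORF4L1 (0.74), for MEF2A ZNF692 (0.72), TRPM7 (0.71) and SLC22A23 (0.69), and for MEF2D CLIP1 (0.60), CTRL (0.55) and E2F6 (0.52). For MYF5 the array-named probe gave LPHN1 (0.66), SEC24A (0.63) and CLDN2 (0.63), and the brightest RefSeq-named probe gave AMPD2 (0.59), VGLL3 (0.59) and VCL (0.57). For PAX7 the genes changed with the spot: INHA (0.81), CD274 (0.79) and FAM98C (0.76) on the brighter spot had r of -0.03, 0.05 and 0.33 with the second spot, whose own were CYBA (0.73), NFKBIL2 (0.73) and ZNF746 (0.72).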

How the data were processed

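The authors deposited, for each of 61 fetuses, the scanner's intensity of every spot (Agilent Feature Extraction 10.10.1.1, per the labels) and a table of quantile-normalized log2 values, which lacks 2351 values over 44368 rows. The deposited log2 table served as an alternative. From the deposited background-corrected intensity, non-uniform spots (4 to 802 per array) were set to missing, arrays were quantile normalized with limma 3.58.1 in R 4.3.3 and put on the log2 scale. Probes entered the tests where, in 1 group or more, 80% or more of the arrays marked them well above background. The 8 group means were fitted with limma (moderated two-sided tests, Benjamini-Hochberg over all kept probes, 1%). The random sow effect of the authors' model was not fitted, because the labels do not name the sow, so p-values measure the spread between fetuses. Alternatives changed the signal, background correction, normalization, filter, slide, samples and choice of probe; the MYF5 and PAX7 probe choices were added after seeing the data. The number of arrays limits the precision. The members and lists were chosen with earlier results of these data known. All 9 members are named, and the main probe is the brightest of those named for the gene by the array or the study's gene lists. For MYF5 this probe is dimmer than all its RefSeq-named probes. From each list at most the 3 largest changes past the threshold in each direction are named. Most alike genes are the 3 with the highest Pearson r. The fit was tested on simulated data. Sequences are the probe sequences of the scanner files. The result of 1 listed gene for MS against LW at day 110 is not reported here.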

Additional observations from a re-analysis of the deposited data

Results flagged for a closer look

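Of 88 combinations of probe and group, 9 held a fetus that stood apart from the rest of its group by the ratio of its gap to the group's range (Dixon, 95%), and chance marks about 1 in 20 groups. For MYF5 (array-named probe) MS day 90 replicate 3 was lowest at 1.67 (nearest 4.17), a spot not well above background. For MYOD1 LWMS day 90 replicate 5 was highest at 10.65 (nearest 10.15). For MYOG MS day 90 replicate 2 was lowest at 11.54 (nearest 12.66) and LWMS day 90 replicate 3 lowest at 11.63 (nearest 12.49). For PAX7 MSLW day 90 replicate 3 was highest at 8.78 (nearest 7.88), and on the second spot LWMS day 110 replicate 4 was highest at 9.32 (nearest 8.95). For MEF2A LW day 90 replicate 8 was lowest at 11.44 (nearest 11.83). For MEF2D LW day 110 replicate 7 was highest at 7.10 (nearest 6.16) and LWMS day 110 replicate 1 highest at 6.26 (nearest 5.82).

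The interaction term of limma set MS apart from LW in the age change of PAX7, by 1.14 on the brighter spot and 0.88 on the second spot, and in that of PAX3, by 0.79. The rise was larger in MS in each case.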

How the results depend on the processing

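No called value reversed its direction under any alternative run. Among counts of member genes, 3 moved by more than 1.5 times. With only the groups of the contrast, 1 gene in place of 2 passed the test of the age change in MS against LW, PAX7 being lost. For age by maternal genotype, 2 genes passed with the slide as a block and 1 with the mean of the probes of a gene, in place of 0. The other 238 values of counts stayed within 1.5 times. Leaving out each MSLW fetus of day 110 in turn moved the count of genes with an age change in MSLW from 4 to 6 (6 with all fetuses), PAX7 being lost without replicate 1, 2, 4 or 5 and MEF2D without replicate 1, 2 or 4. The averaged age count stayed at 7, the F test at 7, the number of genes with neighbouring groups that differ at 5, and the tests of crosses, mid-parent and parents at 0. Among single genes, the array-named MYF5 probe passed for the age change with the median signal (-0.18) and the deposited log2 values (-0.16). At day 110, MYOD1 passed with the slide as a block (-0.39), MYOG did not with the slide as a block (-0.42) or the mean of its probes (-0.31), and MEF2A passed with 75th percentile scaling (0.32) or the mean of its probes (0.29). The rise of PAX7 in LW was lost with the second spot (0.34). The causes were not tested. With 75th percentile scaling the median age change in MS over all probes was 0.12 in place of 0.03. No paired analysis was possible because the labels give no replicate number or sow that pairs fetuses of different groups; fetuses were compared within slides instead. Member probes not well above background on every array (MYF5 array-named, MEF2D, a MYOD1 probe and the MYOG probe at base 138) are the least certain.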
